A study of Mus musculus with 10 samples.

Results

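Among 10 mouse cutaneous tumors profiled by RNA-seq, 7 had a *Vim* level of 2000 FPKM or more, and these 7 were ranked by *Ptprc*, which encodes the leukocyte surface phosphatase CD45. The 3 tumors with the most *Ptprc* RNA and the 3 with the least, 6 of the 10, were then compared without regard to *Ldha* genotype, and the tumor in the middle of the ranking was left out of both groups. FPKM is the number of fragments scaled by gene length and by the total counted in the library. The ranking values were 39.0, 37.8 and 34.7 FPKM in wild-type tumor 2, *Ldha*-null tumor 2 and *Ldha*-null tumor 5, 22.6 FPKM in wild-type tumor 3, and 17.9, 15.4 and 11.4 FPKM in *Ldha*-null tumor 4, wild-type tumor 4 and wild-type tumor 1. Of the tumors next to the limits of the groups, *Ldha*-null tumor 5 and *Ldha*-null tumor 4 were thus just inside and wild-type tumor 3 lay between them. The tumors were thus chosen by *Vim* and *Ptprc* in the same libraries, and neither gene is a finding. *Vim* stood at 4761, 4101 and 4217 FPKM in the first group and at 4226, 4408 and 6043 FPKM in the second. The Vim limit fell between 1485 FPKM in wild-type tumor 5, the highest of the 3 tumors left out, and 4101 FPKM in *Ldha*-null tumor 2, the lowest of the 7.

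The study compared squamous cell carcinomas (SCC) that carry or lack *Ldha*, the lactate dehydrogenase subunit that makes lactate from pyruvate, and the samples analysed here are 5 tumors labelled *Ldha*-null and 5 labelled wild type, fewer per genotype than the text of the study describes. According to the methods, tumors arose from hair follicle stem cells of mice on a mixed C57BL6/FVB background, with Cre driven by *K15CrePR* (induced by mifepristone) or *Lgr5CreER* (induced by tamoxifen), deletion of *p53* from floxed alleles beside a second engineered allele, with or without floxed *Ldha*, or by DMBA and TPA painted on the skin. Induction was at 7 to 8 weeks of age, with harvest 8 to 9 weeks after mifepristone, 14 to 16 weeks after tamoxifen, or 19 to 20 weeks after DMBA. Which model, promoter or age each sequenced tumor had is not stated, and recombination was described as mosaic in some tumors. The labels call the source squamous carcinoma cells, but the protocol starts from fresh tumors and describes no sorting, so every library could hold RNA of stroma, vessels, leukocytes and skin. In such bulk samples fewer cells of a type and less RNA per cell cannot be told apart. The group with more *Ptprc* held 1 wild-type and 2 *Ldha*-null tumors, and the group with less held 2 wild-type and 1 *Ldha*-null tumor.

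Leukocytes enter a carcinoma from the blood. Macrophages and monocytes depend on the receptor Csf1r, T cells carry the CD3 complex, and macrophages make the complement protein C1q. Natural killer (NK) cells and cytotoxic T cells kill through granzymes, and the interferon they and other cells release raises antiviral genes and antigen presentation by MHC class I. Keratinocytes, from which SCC arises, are told apart by their keratins, and some carcinomas lose these and gain mesenchymal genes such as *Vim*.

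The leukocyte markers bore out the ranking only in part. In the order of tumors given above, which holds throughout, *Csf1r* was at 110.4, 191 and 65.3 FPKM in the 3 tumors with more *Ptprc*, 62.3 FPKM in the middle tumor and 91.05, 84.2 and 77.5 FPKM in the 3 with less. *Cd3e*, a CD3 chain, was at 6.45, 0.605 and 7.01 FPKM, 2.74 FPKM and 3.65, 0.866 and 0.202 FPKM. *C1qa*, a C1q chain, was at 1744, 1962 and 939 FPKM, 1142 FPKM and 1252, 988 and 944 FPKM. The groups overlapped for all 3 genes, since *Ldha*-null tumor 2 had little *Cd3e* and *Ldha*-null tumor 5 had the lowest *Csf1r* and *C1qa* of the 6. Adjusted p-values from edgeR's quasi-likelihood test were 0.615, 0.539 and 0.543. The groups are therefore called Ptprc-high and Ptprc-low here, not leukocyte-rich and leukocyte-poor.

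Over the 6 tumors, edgeR's quasi-likelihood test called 0 of 15531 genes (0.0%, *Ptprc* left out) at an adjusted p under 0.05, and the smallest adjusted p was 0.069. An unadjusted p under 0.05 was reached by 2374 genes, or 15.3%, 7.78% higher and 7.5% lower in Ptprc-high tumors. DESeq2 called 382 genes higher and 312 lower over 24363 genes, and of the genes tested by edgeR it called 2.4% higher and 1.94% lower. The call depended on single tumors: without wild-type tumor 1 edgeR called 27 genes higher and 70 lower, without *Ldha*-null tumor 2 it called 9 and 14, and without any 1 of the other 4 it called 0. With 3 tumors against 3, an exact permutation test of a single gene cannot give a p under 0.1. The values below are therefore a description of these 6 tumors. As a count, genes were taken whose 3 values in one group all lay above the 3 of the other on log2 CPM, the counts scaled by library total and TMM factor. The groups did not overlap in this sense for 10.4% of genes in the direction of higher and for 9.72% in the direction of lower values in Ptprc-high tumors, 20.1% in all, and the median log2 fold change of all genes was 0.00. The deposited FPKM, by which levels are printed, were not scaled by TMM and lay higher in Ptprc-high tumors by a median of 0.11 on the log2 scale. The 10.4% and 9.72% are the shares to set beside each count over all 6 tumors below. Leaving out a tumor can only keep or raise the number of genes without overlap. Such numbers are given below mainly for the tumors whose absence raised them most. With 1 tumor left out, so that 3 were set against 2, the shares of all genes were larger. For the *Ldha*-null tumors they were 19.3% higher and 19.3% lower when tumor 2 was left out, 16% and 14.8% when tumor 5 was, and 16.1% and 14.2% when tumor 4 was. For the wild-type tumors they were 17.6% and 17.8% when tumor 1 was left out, 13.0% and 12.2% when tumor 2 was, and 13.5% and 12.6% when tumor 4 was. On FPKM 2192 genes were higher without overlap and 1072 lower, so that 67.2% of such genes were higher, against 51.6% with TMM.

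Total counts were 14684157 to 17694201 in the 6 tumors and 12969508 in the middle tumor, and mitochondrial genes took 1.48% to 3.79% of them in Ptprc-high and 2.35% to 3.44% in Ptprc-low tumors. Wild-type tumor 1 stood apart from the other 6 *Vim*-high tumors in its sex-linked genes, with the Y-linked *Ddx3y* at 6.42 FPKM against at most 0.0848 FPKM and *Xist*, the RNA of the inactive X chromosome, at 0.112 FPKM against 33.2 to 115.5 FPKM. Its part in the results was not tested beyond the values without it. The targeted *Ldha* was found in every library, at 340.1, 246 and 324 FPKM in Ptprc-high tumors, 345 FPKM in the middle tumor and 542, 589 and 389.6 FPKM in Ptprc-low tumors. Transcript outside the deleted part would still be counted, and cells without the deletion could add to it. This level therefore does not check the genotype labels, and its source was not tested.

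Across leukocytes in general, the Ptprc-high tumors held more RNA of genes that many leukocyte types share. Of 25 tested pan-leukocyte genes, 14 were higher in all 3 Ptprc-high than in all 3 Ptprc-low tumors and 0 were lower, where 10.4% of all genes were higher in this way, and the median log2 fold change was 0.63. These genes lie in the same cells as *Ptprc*, so that the ranking itself bears on their count. Their summed level was 2351, 2596 and 1898 FPKM in Ptprc-high, 2012 FPKM in the middle and 1739.9, 1547 and 1378 FPKM in Ptprc-low tumors, a ratio of means of 1.47. *Lcp2*, an adaptor of T cell and platelet receptors, was at 32.4, 25.6 and 23.6 FPKM in Ptprc-high and 12.9, 12.6 and 8.9 FPKM in Ptprc-low tumors, with a log2 fold change of 1.14 (SE 0.24, edgeR adjusted p = 0.13). *Cd52*, a small surface glycoprotein of lymphocytes and monocytes, was at 516, 349 and 437 FPKM and 242, 169 and 199 FPKM. *Itgal*, a chain of the integrin LFA, was at 7.0, 5.62 and 6.77 FPKM and 3.91, 2.22 and 2.76 FPKM. The gap between the groups was narrow for the list as a whole, as its lowest Ptprc-high sum (1898 FPKM) was close to its highest Ptprc-low sum (1740 FPKM). As log2 minus the mean over the 7 *Vim*-high tumors, these sums stood at 0.0056 and -0.12. The FPKM of all genes lay higher in Ptprc-high tumors by a median of 0.11 on the log2 scale. Whether the sums separate with TMM was not tested.

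**Figure D1:**
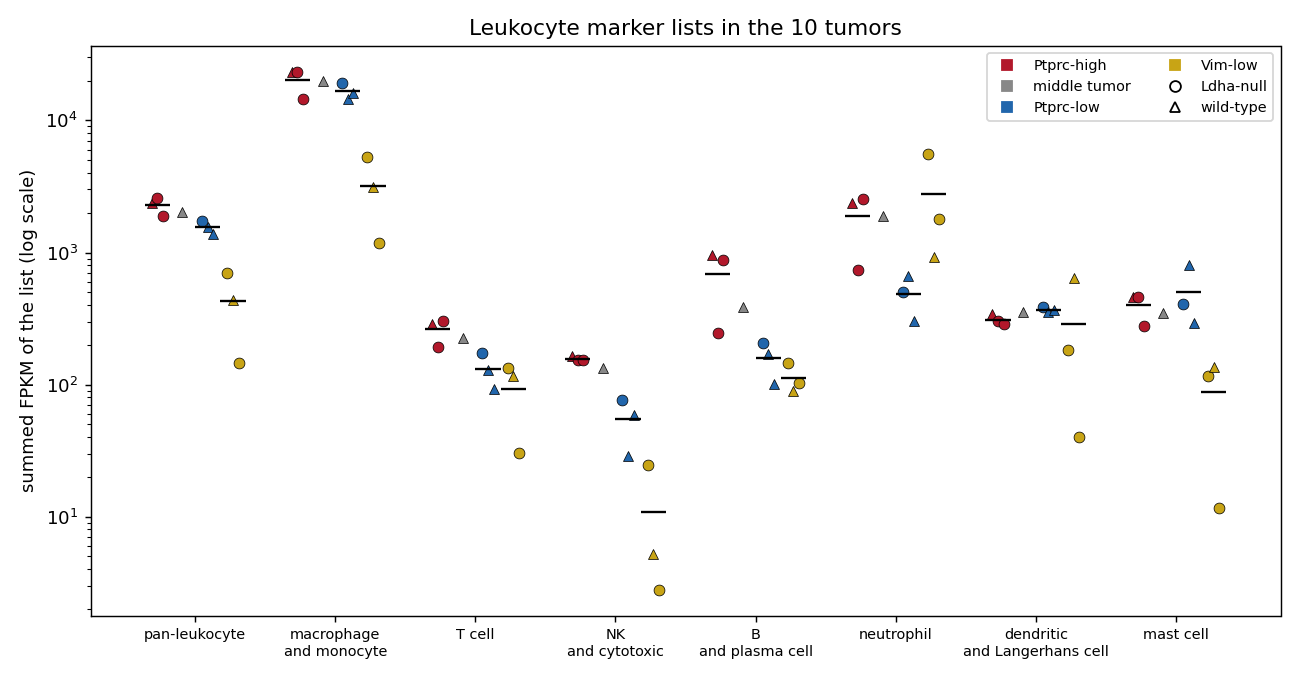
Summed FPKM of 8 leukocyte marker lists (log scale) in each of the 10 tumors, with circles for *Ldha*-null and triangles for wild-type tumors, color for the group and a bar at each group's mean. NK and cytotoxic genes lay between 152.9 and 163.2 FPKM in the 3 Ptprc-high tumors and between 28.8 and 76.7 FPKM in the 3 Ptprc-low tumors, whereas the macrophage list overlapped.

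Macrophage and monocyte genes had the largest summed FPKM of the 8 leukocyte lists in the 7 *Vim*-high tumors, and the sum overlapped between the groups. This list was also the longest of the 8, and sums of different lists do not rank cell types by number. The 30 genes summed to 23085, 23338 and 14537 FPKM in Ptprc-high, 19798 FPKM in the middle and 19201, 14503 and 16068 FPKM in Ptprc-low tumors, and the lowest Ptprc-high value, of *Ldha*-null tumor 5, lay among the Ptprc-low values. Among them 8 were higher without overlap and 2 lower (median log2 fold change 0.48), and without *Ldha*-null tumor 5 there were 21 higher and 2 lower, where 16% and 14.8% of all genes were. With any other tumor left out 8 to 10 were higher, where 13.0% to 19.3% of all genes were. *Ly6c2*, a surface protein of recently arrived monocytes, was at 6.64, 12.7 and 14.3 FPKM in Ptprc-high, 5.67 FPKM in the middle and 2.73, 1.64 and 3.78 FPKM in Ptprc-low tumors (log2 fold change 1.95, SE 0.42, edgeR adjusted p = 0.132). *Ccr2*, the chemokine receptor by which such monocytes leave the marrow, was at 25.7, 29.7 and 21.1 FPKM and 11.6, 10.6 and 15.6 FPKM, and *Aif1*, an actin-bundling protein of macrophages, at 202, 162 and 148 FPKM and 98.00, 78.2 and 60.2 FPKM. The 2 lower genes were *Arg1*, the arginase of wound-type macrophages, at 11.4, 16.8 and 33.5 FPKM against 38.7, 40.6 and 90.4 FPKM, with 162 FPKM in the middle tumor, and *Spp1*, which encodes osteopontin and was named after its values were seen, at 189, 734 and 601 FPKM against 851, 1021 and 750.4 FPKM. Both are also made by cells other than macrophages.

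Some receptors by which myeloid cells take up and sense particles were higher. Of 20 Fc receptor and lectin genes 7 were higher without overlap and 0 lower, with a median log2 fold change of 0.60. *Clec12a*, an inhibitory lectin of myeloid cells, was at 32.9, 19.9 and 25.8 FPKM in Ptprc-high and 10.4, 5.55 and 5.82 FPKM in Ptprc-low tumors (log2 fold change 1.75, SE 0.31, edgeR adjusted p = 0.112). *Clec7a*, the beta-glucan receptor dectin-1, was at 21.95, 15.8 and 21.1 FPKM and 9.69, 5.72 and 7.87 FPKM. Of 21 toll-like receptor and inflammasome genes 5 were higher and 0 lower, and the smallest p was that of *Tlr3*, the sensor of double-stranded RNA, at 3.98, 4.5 and 5.18 FPKM against 1.5, 1.3 and 1.47 FPKM (log2 fold change 1.57, SE 0.25, edgeR adjusted p = 0.0968). Of 20 phagocyte oxidase and lysosome genes 4 were higher and 0 lower. They were *Cybb*, the membrane subunit of the phagocyte oxidase, at 126, 99.3 and 103 FPKM against 61.8, 39.9 and 49.1 FPKM, and *Ctss*, *Ctsc* and *Lamp2* of the lysosome. Without *Ldha*-null tumor 5, where 16% of all genes were higher, the number was 16 of the 20 oxidase and lysosome genes, 11 of the 21 toll-like receptor and inflammasome genes and 12 of the 20 Fc receptor and lectin genes. With any other tumor left out these numbers were 4 to 6, 6 or 7 and 7 to 10, where 13.0% to 19.3% of all genes were higher. Of 16 complement genes 1 was higher and 1 lower, fewer than the 10.4% and 9.72% of all genes, with *C3ar1*, the receptor for C3a, higher (39.7, 39.1 and 25.3 FPKM against 18.1, 19.9 and 15.01 FPKM) and *Serping1*, the inhibitor of C1, lower (50.9, 67.9 and 41.3 FPKM against 125, 117 and 78.6 FPKM).

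Of the 8 leukocyte marker lists, those of B and plasma cells and of NK and cytotoxic cells had the largest median log2 fold changes (2.25 and 1.56). All 17 NK and cytotoxic genes had a positive log2 fold change, and 10 were higher without overlap, where 10.4% of all genes were. *Xcl1*, a chemokine of NK and T cells that draws dendritic cells, was at 7.42, 7.53 and 4.52 FPKM in Ptprc-high, 6.49 FPKM in the middle and 1.04, 0.973 and 0.334 FPKM in Ptprc-low tumors (log2 fold change 2.93, SE 0.56, edgeR adjusted p = 0.118). *Klrk1*, which encodes the activating receptor NKG2D, was at 7.19, 4.5 and 7.66 FPKM and 3.23, 1.21 and 1.28 FPKM. *Klrd1*, which encodes CD94, was at 17.5, 6.25 and 17.04 FPKM and 5.14, 2.89 and 4.71 FPKM. *Gzma*, granzyme A, was at 1.47, 1.91 and 2.21 FPKM and 0.137, 0.322 and 0.0662 FPKM, with few fragments behind the last values. The NK and cytotoxic sum was 5.91% to 8.05% of the pan-leukocyte sum in Ptprc-high and 1.86% to 4.41% in Ptprc-low tumors, so the shares did not overlap either.

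T cell genes were all fitted higher but varied widely within the Ptprc-high group. All 26 T cell genes tested had a positive log2 fold change, with a median of 1.39. Only 2 did not overlap, a smaller share than the 10.4% of all genes that were higher in this way. They were *Cd28*, the co-stimulatory receptor, and *Cd4*, which was named after its values were seen. *Cd28* had only 2, 8 and 1 counts in the Ptprc-low tumors. *Cd4* was at 6.95, 6.31 and 5.95 FPKM in Ptprc-high, 5.4 FPKM in the middle and 4.59, 3.23 and 1.24 FPKM in Ptprc-low tumors. *Trbc1*, a constant segment of the T cell receptor, was at 34.98, 7.92 and 28.9 FPKM and 12.2, 4.86 and 4.09 FPKM, and *Cd2*, an adhesion receptor, at 13.5, 4.19 and 14.1 FPKM and 6.18, 2.07 and 1.88 FPKM. For both of these genes *Ldha*-null tumor 2 fell below *Ldha*-null tumor 4. Without *Ldha*-null tumor 2 the groups did not overlap for 22 of the 26 genes, all higher, where 19.3% of all genes were, and without *Ldha*-null tumor 4 for 17, where 16.1% were. With any other tumor left out the groups did not overlap for 2 or 3 genes, where 13.0% to 17.6% of all genes were higher. The T cell sum was 12.3%, 7.43% and 15.97% of the pan-leukocyte sum in Ptprc-high tumors and 10.03%, 8.35% and 6.66% in Ptprc-low tumors, which overlapped.

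B and plasma cell genes as a sum were also highest in wild-type tumor 2 and *Ldha*-null tumor 5. *Igkc*, the kappa light chain, was at 763, 116 and 699.8 FPKM in Ptprc-high, 294 FPKM in the middle and 94.4, 63.7 and 7.92 FPKM in Ptprc-low tumors (log2 fold change 3.12, SE 0.88, edgeR adjusted p = 0.188). For *Igkc*, wild-type tumor 2 and *Ldha*-null tumor 5 stood far above *Ldha*-null tumor 2, which was close to the highest Ptprc-low tumor. Of 9 genes tested 5 were higher without overlap, *Igkc*, *Iglc2*, *Igj*, *Cd79b* and, named after its values were seen, *Cd79a*. *Igj*, the joining chain of secreted antibodies, was at 16.8, 5.82 and 23.8 FPKM and 4.86, 2.41 and 0.263 FPKM. *Iglc2*, a lambda light chain, had its highest value in *Ldha*-null tumor 2, at 2.81, 5.16 and 4.1 FPKM against 0.795, 0.187 and 0.48 FPKM.

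Neutrophil genes mostly overlapped between the groups, although their sum did not (2391, 738 and 2524 FPKM in Ptprc-high and 498, 666 and 302 FPKM in Ptprc-low tumors). Most of the sum in each tumor was *S100a8* (1379, 232 and 1344 FPKM against 242, 345 and 119 FPKM) and *S100a9*. The sum thus says little about the other genes of the list. *S100a9*, a calcium-binding protein of neutrophils that stressed keratinocytes also make, was at 934, 169 and 1040.4 FPKM in Ptprc-high, 786 FPKM in the middle and 164, 194 and 71.1 FPKM in Ptprc-low tumors, and *Ldha*-null tumor 2 lay within the Ptprc-low range. Of 16 genes tested only *Ngp*, a protein of neutrophil granules, did not overlap, at 0.895, 0.619 and 1.49 FPKM against 0.297, 0.418 and 0.334 FPKM. That is a smaller share than the 10.4% of all genes that were higher without overlap. Of 10 mast cell genes 1 was lower, close to the 9.72% of all genes. It was the tryptase *Tpsab1*, at 87.4, 75.8 and 63.5 FPKM against 110.5, 215 and 136 FPKM. Dendritic and Langerhans cell genes had a median log2 fold change of 0.80, with 6 of 16 higher and 1 lower, where 10.4% and 9.72% of all genes were. Without *Ldha*-null tumor 4 there were 12 higher, where 16.1% of all genes were. With any other tumor left out there were 6 to 10 higher, where 13.0% to 19.3% of all genes were. The summed FPKM of the list was, however, lower in Ptprc-high tumors (343, 300.5 and 288 FPKM against 388, 353 and 367 FPKM). The lower gene was *Fscn1*, an actin-bundling protein also made by carcinoma cells, at 131, 201 and 142 FPKM against 259, 278 and 306 FPKM. *Fscn1* was most of the list's sum in Ptprc-low tumors, and the lower sum in Ptprc-high tumors came from this gene. *Itgax*, which encodes CD11c, was at 8.22, 6.27 and 7.69 FPKM and 4.13, 1.49 and 2.65 FPKM, and *Cd207*, the langerin of Langerhans cells, at 2.76, 1.63 and 1.31 FPKM and 0.473, 0.48 and 0.532 FPKM.

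Every tested gene of MHC class I antigen presentation and of the interferon-stimulated list was fitted higher in Ptprc-high tumors, and part of them did not overlap. All 14 MHC class I genes had a positive log2 fold change (median 1.28), and 7 were higher without overlap, or 12 without *Ldha*-null tumor 2 or without *Ldha*-null tumor 4, where 19.3% and 16.1% of all genes were. With any other tumor left out the number was 7 or 8, where 13.0% to 17.6% of all genes were higher. *B2m*, the light chain of every class I molecule, was at 2624, 1521 and 2750.4 FPKM in Ptprc-high, 2055 FPKM in the middle and 936, 530.3 and 530.2 FPKM in Ptprc-low tumors (log2 fold change 1.68, SE 0.32, edgeR adjusted p = 0.118). *Psmb8*, a subunit of the immunoproteasome, was at 93.98, 55.1 and 95.95 FPKM and 44.3, 20.3 and 12.7 FPKM. All 32 interferon-stimulated genes had a positive log2 fold change (median 1.76), 25 with an unadjusted edgeR p under 0.05 and 12 without overlap. Of all genes, 7.78% were higher at that p and 10.4% were higher without overlap. *Ifit2*, which binds viral RNA, was at 10.7, 35.3 and 27.1 FPKM, 9.73 FPKM and 6.72, 4.23 and 7.08 FPKM (log2 fold change 1.93, SE 0.42, edgeR adjusted p = 0.133). *Ifih1*, the RNA sensor MDA5, was at 5.72, 13.5 and 7.11 FPKM, 5.94 FPKM and 3.54, 1.87 and 2.35 FPKM. *Rsad2*, the antiviral enzyme viperin, was at 4.09, 22.3 and 9.88 FPKM and 2.91, 1.54 and 3.1 FPKM, and *Gbp7*, a guanylate-binding protein, at 36.9, 19.3 and 37.7 FPKM and 17.5, 7.84 and 6.19 FPKM. Wild-type tumor 2 was the lowest Ptprc-high tumor for *Ifit2*, *Ifih1* and *Rsad2*, and *Ldha*-null tumor 2 the lowest for *B2m*, *Psmb8* and *Gbp7*. Without *Ldha*-null tumor 4, or without wild-type tumor 2, the number without overlap rose to 26 of 32, where 16.1% and 13.0% of all genes were higher. With any other tumor left out it was 12 to 15, where 13.5% to 19.3% of all genes were. In the middle tumor, on the TMM scale, 11 of the 12 interferon-stimulated genes without overlap lay within or above the Ptprc-high range. Among all genes tested, 1610 were higher without overlap, and 546 of these lay within or above that range in the middle tumor.

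The interferon-stimulated response element (ISRE), searched on either strand as GAAA, any 2 bases and GAAA, is bound by interferon-activated factors. It was found in the promoter windows (250 bases before to 50 after the start, from RefSeq on build GRCm38.p6) of 16 of 25 interferon-stimulated genes with a window, 64.0%, of 3 of 12 MHC class I genes, and of 3.99% of all 27025 genes with one. Below are the 150 bases before the start of *Rsad2*, *Gbp7* and *B2m*, shown because their levels did not overlap between the groups and their windows hold the element, with the element in capitals.
*Rsad2* promoter, chr12:26456453-26456602, minus strand: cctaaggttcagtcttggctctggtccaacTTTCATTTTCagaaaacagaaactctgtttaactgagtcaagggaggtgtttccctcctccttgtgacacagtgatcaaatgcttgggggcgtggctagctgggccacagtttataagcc
*Gbp7* promoter, chr3:142530186-142530335, plus strand: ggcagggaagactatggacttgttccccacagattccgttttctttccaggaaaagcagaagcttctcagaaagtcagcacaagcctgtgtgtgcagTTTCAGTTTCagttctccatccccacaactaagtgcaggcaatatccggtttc
*B2m* promoter, chr2:122147537-122147686, plus strand: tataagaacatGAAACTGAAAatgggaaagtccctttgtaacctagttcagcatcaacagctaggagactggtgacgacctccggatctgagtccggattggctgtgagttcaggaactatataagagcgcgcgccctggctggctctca
The first base of the element lay 120, 53 and 139 bases before the start in *Rsad2*, *Gbp7* and *B2m*. A match is a description and not a measured site.

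Of the signals between cells, several ligands and receptors were higher in Ptprc-high tumors and a few were lower. Among 31 chemokine ligands 6 were higher without overlap and 1 lower, where 10.4% and 9.72% of all genes were. *Cxcl13*, which draws B cells, was at 50.7, 13.99 and 17.5 FPKM in Ptprc-high, 2.7 FPKM in the middle and 3.65, 1.35 and 5.61 FPKM in Ptprc-low tumors (log2 fold change 2.86, SE 0.63, edgeR adjusted p = 0.133). *Ccl4*, a chemokine of activated macrophages and T cells, was at 8.87, 10.6 and 13.5 FPKM and 4.47, 2.83 and 1.5 FPKM. The lower ligand was *Cxcl1*, which draws neutrophils, at 21.9, 9.66 and 8.65 FPKM, 96.6 FPKM and 40.7, 102 and 46.4 FPKM (log2 fold change -2.36, SE 0.50, edgeR adjusted p = 0.127). *Tnfrsf9*, the co-stimulatory receptor 4-1BB, was also lower, at 9.03, 15.2 and 14.6 FPKM against 28.8, 34.6 and 22.1 FPKM. *Tslp*, an epithelial cytokine that acts on dendritic cells, was at 10.2, 4.96 and 24.2 FPKM against 3.08, 1.4 and 1.33 FPKM. *Il15*, the cytokine that NK cells need, was at 8.21, 5.16 and 4.83 FPKM against 3.16, 2.25 and 2.19 FPKM, and *Il6* was lower, at 0.564, 1.55 and 1.23 FPKM against 1.72, 2.65 and 2.78 FPKM. Of the checkpoint genes, *Lgals9*, which encodes galectin-9, was at 104, 155 and 94.7 FPKM against 68.3, 69.4 and 62.2 FPKM and *Havcr2*, its receptor Tim-3, at 10.8, 13.4 and 9.95 FPKM against 7.53, 6.63 and 6.95 FPKM, while *Cd274*, which encodes PD-L1, overlapped (3.48, 2.86 and 5.84 FPKM against 2.93, 1.3 and 1.03 FPKM).

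Of 20 blood endothelial genes 2 were higher and 2 lower without overlap (median log2 fold change 0.21), close to the 10.4% and 9.72% of all genes. Of 6 tested genes listed for leukocyte adhesion on vessels, 4 were higher. They were the adhesion molecules *Vcam1*, *Icam1* and *Icam2*, and *Cd40*, which encodes a signaling receptor and not an adhesion molecule. *Vcam1* was at 61.4, 63.2 and 55.3 FPKM in Ptprc-high, 42.8 FPKM in the middle and 25.8, 20.4 and 41.3 FPKM in Ptprc-low tumors, and other cells of a tumor make it too.

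**Figure D2:**
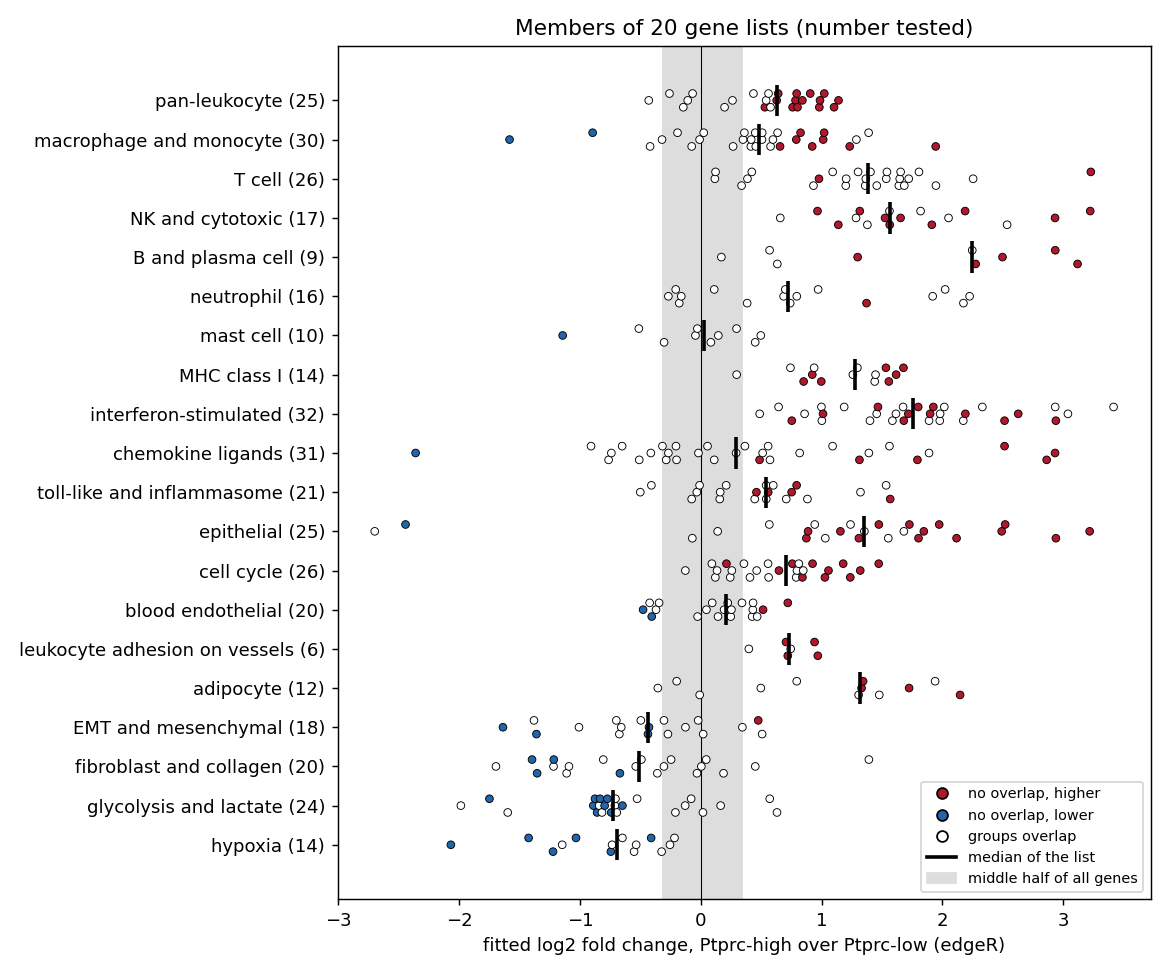
Fitted log2 fold change (edgeR, Ptprc-high over Ptprc-low tumors) of each tested member of 20 gene lists, filled where the groups did not overlap, with a bar at the list's median and a gray band from the lower to the upper quartile of all genes. All 32 interferon-stimulated genes lay above 0 and all 14 hypoxia genes below it (the EMT list includes *Vim* here).

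Keratinocyte genes moved with the same grouping, with a larger median difference than the pan-leukocyte genes. Of 25 epithelial genes 14 were higher in all 3 Ptprc-high tumors and 1 was lower (median log2 fold change 1.35). *Krt14*, a keratin of basal keratinocytes, was at 2830.1, 2112 and 1337 FPKM in Ptprc-high, 663 FPKM in the middle and 549.6, 359 and 138 FPKM in Ptprc-low tumors (log2 fold change 2.49, SE 0.51, edgeR adjusted p = 0.118). *Krt16*, a keratin of wounded and cycling epidermis, was at 552, 276 and 306 FPKM and 102, 28.6 and 8.96 FPKM, and *Krt1*, a keratin of differentiating layers, at 77.8, 37.98 and 149.7 FPKM and 29.2, 8.09 and 5.4 FPKM. *Krt8*, a keratin of simple epithelia that was named after its values were seen, went the other way, at 1.62, 83.4 and 139.9 FPKM against 425, 269 and 431 FPKM. The 26 epithelial genes summed to 5278, 3705 and 3602 FPKM in Ptprc-high, 1727 FPKM in the middle and 2024, 1147 and 862 FPKM in Ptprc-low tumors, and to 63084, 60257 and 8946 FPKM in the 3 *Vim*-low tumors (*Ldha*-null tumor 3, wild-type tumor 5 and *Ldha*-null tumor 1), where *Ptprc* was at 12.3, 6.06 and 1.88 FPKM. Over all 10 tumors the most epithelial RNA was thus found where *Ptprc* was low. The part of keratinocyte content in the other differences was not tested.

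Outside the lists, the 15 genes with the smallest p among those higher in Ptprc-high tumors include several known from skin. *Flg*, filaggrin, which packs keratin in that layer, was at 45.96, 43.8 and 48.7 FPKM in Ptprc-high, 9.73 FPKM in the middle and 11.4, 6.48 and 3.96 FPKM in Ptprc-low tumors (log2 fold change 2.56, SE 0.35, edgeR adjusted p = 0.077). *Fabp5*, the fatty acid-binding protein of epidermis, was at 257, 123 and 184 FPKM and 46.00, 27.2 and 27.5 FPKM, and *Asprv1*, a protease that cuts filaggrin, at 33.2, 40.4 and 39.8 FPKM and 9.18, 4.44 and 2.09 FPKM. *Calm4*, a calmodulin-like protein of skin, was at 253, 174 and 212 FPKM and 28.8, 15.01 and 4.96 FPKM. *Kif15*, a mitotic kinesin, and *Ttk*, a kinase of the spindle checkpoint, were among the same 15 genes, *Ttk* at 7.57, 9.12 and 9.19 FPKM and 2.53, 2.06 and 2.92 FPKM. Of 12 adipocyte genes 4 were higher without overlap, and 9 without *Ldha*-null tumor 2, where 19.3% of all genes were. With any other tumor left out the number stayed at 4, where 13.0% to 17.6% of all genes were higher. *Adipoq*, adiponectin, was at 5.28, 1.71 and 5.49 FPKM, 0.168 FPKM and 1.18, 1.23 and 0.127 FPKM, and the 13 adipocyte genes listed summed to 175, 74.6 and 281 FPKM, 51.4 FPKM and 99.6, 80.6 and 83.8 FPKM. The part of fat in the other differences was not tested.

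Of 26 cell cycle genes 11 were higher without overlap and 0 lower, and 25 had a positive log2 fold change (median 0.70). Without wild-type tumor 1 there were 20 higher, where 17.6% of all genes were. With any other tumor left out there were 11 to 15 higher, where 13.0% to 19.3% of all genes were. *Top2a*, the topoisomerase of dividing cells, was at 109.5, 115 and 109 FPKM in Ptprc-high, 67.6 FPKM in the middle and 39.4, 33.6 and 59.2 FPKM in Ptprc-low tumors (log2 fold change 1.24, SE 0.23, edgeR adjusted p = 0.118). *Mki67*, which encodes Ki67, was at 10.7, 14.4 and 16.9 FPKM, 7.26 FPKM and 4.19, 4.09 and 8.99 FPKM. *Ccnb2*, cyclin B2, was at 47.2, 27.4 and 42.98 FPKM and 11.2, 6.82 and 21.4 FPKM. Wild-type tumor 1 was the highest Ptprc-low tumor for *Mki67* and *Ccnb2*. In the middle tumor, on the TMM scale, 9 of the 11 genes higher without overlap over all 6 tumors lay within or below the Ptprc-low range. Among all genes tested, 1610 were higher without overlap, and 710 of these lay within or below that range.

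**Figure D3:**
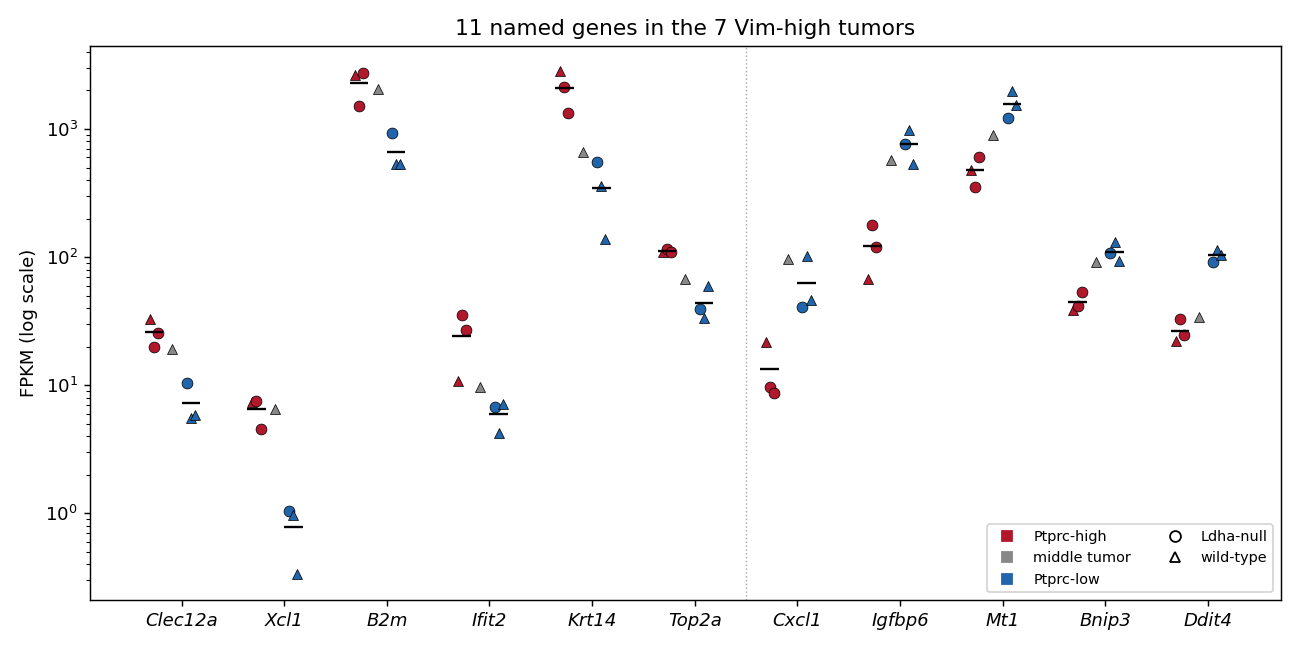
FPKM (log scale) of 11 named genes in the 7 *Vim*-high tumors, with color for the group, circles for *Ldha*-null and triangles for wild-type tumors and a bar at each group's mean. The 6 genes left of the dotted line were higher in all 3 Ptprc-high tumors and the 5 to its right lower.

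Some hypoxia and glycolytic genes were lower in all 3 Ptprc-high tumors, and none was higher in all 3. All 14 hypoxia genes had a negative log2 fold change (median -0.69), and 6 were lower without overlap, where 9.72% of all genes were. *Ddit4*, an inhibitor of mTORC1 raised by hypoxia and other stress, was at 22.3, 32.7 and 24.7 FPKM in Ptprc-high, 33.9 FPKM in the middle and 91.9, 115 and 104 FPKM in Ptprc-low tumors (log2 fold change -2.07, SE 0.24, edgeR adjusted p = 0.0721). *Bnip3*, a mitophagy receptor, was at 38.97, 41.9 and 53.02 FPKM, 91.6 FPKM and 107, 131 and 92.7 FPKM (log2 fold change -1.42, SE 0.22, edgeR adjusted p = 0.0864). *P4ha2*, a collagen prolyl hydroxylase, was at 24.9, 27.4 and 17.1 FPKM, 24.3 FPKM and 55.01, 52.6 and 43.9 FPKM. In contrast, the list's *Angptl4*, a secreted inhibitor of lipoprotein lipase, overlapped between the groups (36.7, 31.8 and 51.2 FPKM against 42.3, 76.8 and 125 FPKM).

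Hypoxia-inducible factor (HIF) binds short elements, here searched as ACGTG or GCGTG on either strand. They were found in the windows of all 11 hypoxia genes with one and of 20 of 23 glycolytic genes, but also of 46.7% of all genes. Below are the 150 bases before the start of the hypoxia genes with the smallest p, with these elements in capitals.
*Ddit4* promoter, chr10:59951771-59951920, minus strand: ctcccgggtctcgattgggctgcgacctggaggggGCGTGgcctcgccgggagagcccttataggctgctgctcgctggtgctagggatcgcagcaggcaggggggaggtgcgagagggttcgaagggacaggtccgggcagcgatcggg
*Bnip3* promoter, chr7:138909507-138909656, minus strand: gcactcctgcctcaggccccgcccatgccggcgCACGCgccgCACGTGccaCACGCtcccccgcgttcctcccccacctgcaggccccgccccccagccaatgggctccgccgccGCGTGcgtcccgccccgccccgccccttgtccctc
*P4ha2* promoter, chr11:54100774-54100923, plus strand: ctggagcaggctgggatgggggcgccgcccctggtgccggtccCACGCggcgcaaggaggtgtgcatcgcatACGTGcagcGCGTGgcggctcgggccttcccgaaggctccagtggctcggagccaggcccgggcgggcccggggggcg
The printed stretch held 1 match in *Ddit4*, 5 in *Bnip3*, of which 2 overlap, and 3 in *P4ha2*.

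Of 24 genes of glycolysis and lactate transport 9 were lower without overlap and 0 higher (median log2 fold change -0.73). Without *Ldha*-null tumor 2 there were 17 lower and 1 higher, and without wild-type tumor 1 there were 15 lower, where 19.3% and 17.8% of all genes were lower. With any other tumor left out there were 9 or 10 lower, where 12.2% to 14.8% of all genes were. With no tumor left out, the 9 lower genes include *Ldha*, with a log2 fold change of -0.86 (SE 0.24, edgeR adjusted p = 0.188). By genotype label, *Ldha* was at 246 and 324 FPKM in the Ptprc-high and 542 FPKM in the Ptprc-low *Ldha*-null tumors. In wild-type tumors it was at 340.1 FPKM in the Ptprc-high and 589 and 389.6 FPKM in the Ptprc-low tumors. Since the groups did not overlap over all tumors compared, they could not overlap within a label, so this split is no separate test. *Aldoa*, aldolase, was at 753, 792 and 885 FPKM, 1455 FPKM and 1375, 1286 and 1247 FPKM. *Gpi1*, glucose phosphate isomerase, was at 247, 297 and 269.8 FPKM, 456 FPKM and 469, 433 and 389 FPKM. *Eno2*, an enolase, was at 12.2, 7.09 and 22.6 FPKM, 39.7 FPKM and 41.7, 26.4 and 61.4 FPKM. For *Aldoa* and *Gpi1* the middle tumor lay within or above the Ptprc-low range.

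Mesenchymal and matrix genes were lower in part. Of 20 fibroblast and collagen genes 4 were lower without overlap and 0 higher (median log2 fold change -0.51), *Mfap5*, *Thbs2*, *Col1a2* and, named after its values were seen, *Col6a2*. Without wild-type tumor 1 there were 10 lower and 1 higher, where 17.8% of all genes were lower, and without *Ldha*-null tumor 2 there were 9 and 1, where 19.3% were lower. With any other tumor left out there were 4 to 6 lower, where 12.2% to 14.8% of all genes were. *Mfap5*, a microfibril protein, was at 31.6, 24.9 and 33.05 FPKM in Ptprc-high, 114 FPKM in the middle and 79.3, 70.1 and 62.4 FPKM in Ptprc-low tumors (log2 fold change -1.35, SE 0.20, edgeR adjusted p = 0.0864). *Col1a2*, a chain of type I collagen, was at 804, 1249.9 and 699 FPKM and 1972, 2505 and 1479 FPKM. Of 17 genes of epithelial to mesenchymal transition (EMT), with *Vim* left out, the median log2 fold change was -0.44 and 4 were lower, *Snai1*, *S100a4* and, named after their values were seen, *Twist1* and *Mmp14*, and 1 was higher, *Zeb2*. *Snai1*, a repressor of cadherin genes, was at 6.6, 25.4 and 11.8 FPKM, 22.6 FPKM and 46.8, 44.6 and 36.8 FPKM. *Zeb2*, a repressor of the same kind that macrophages also express, was at 53.4, 36.5 and 41.2 FPKM and 32.6, 28.7 and 26.2 FPKM.

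Of all genes tested, *Bmp6* and *Gfpt2*, both outside the lists and lower in Ptprc-high tumors, had the smallest p-values. *Bmp6*, a bone morphogenetic protein, was at 0.65, 0.817 and 0.981 FPKM in Ptprc-high, 2.59 FPKM in the middle and 8.73, 15.3 and 8.11 FPKM in Ptprc-low tumors (log2 fold change -3.83, SE 0.38, edgeR adjusted p = 0.069). *Gfpt2*, the first enzyme of the hexosamine pathway, was at 4.17, 4.43 and 3.34 FPKM, 13.1 FPKM and 37.3, 19.4 and 20.3 FPKM (log2 fold change -2.78, SE 0.30, edgeR adjusted p = 0.0721). *Mt1*, a metallothionein that binds zinc and copper, was at 479, 351 and 599.6 FPKM, 902 FPKM and 1226, 1978 and 1533 FPKM. *Igfbp6*, which binds insulin-like growth factor II, was at 67.2, 179.7 and 119.7 FPKM, 572 FPKM and 758, 985 and 528 FPKM. *Itgb7*, an integrin chain of mucosal lymphocytes and mast cells, was at 32.4, 33.2 and 32.4 FPKM, 44.8 FPKM and 85.8, 78.98 and 61.7 FPKM. *Nr4a2*, an orphan nuclear receptor, was at 6.34, 5.57 and 9.07 FPKM and 18.6, 20.3 and 32.8 FPKM. The 3 Ptprc-high tumors were close to one another in *Itgb7* and *Bmp6*, and the middle tumor fell between the groups in both.

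**Figure D4:**
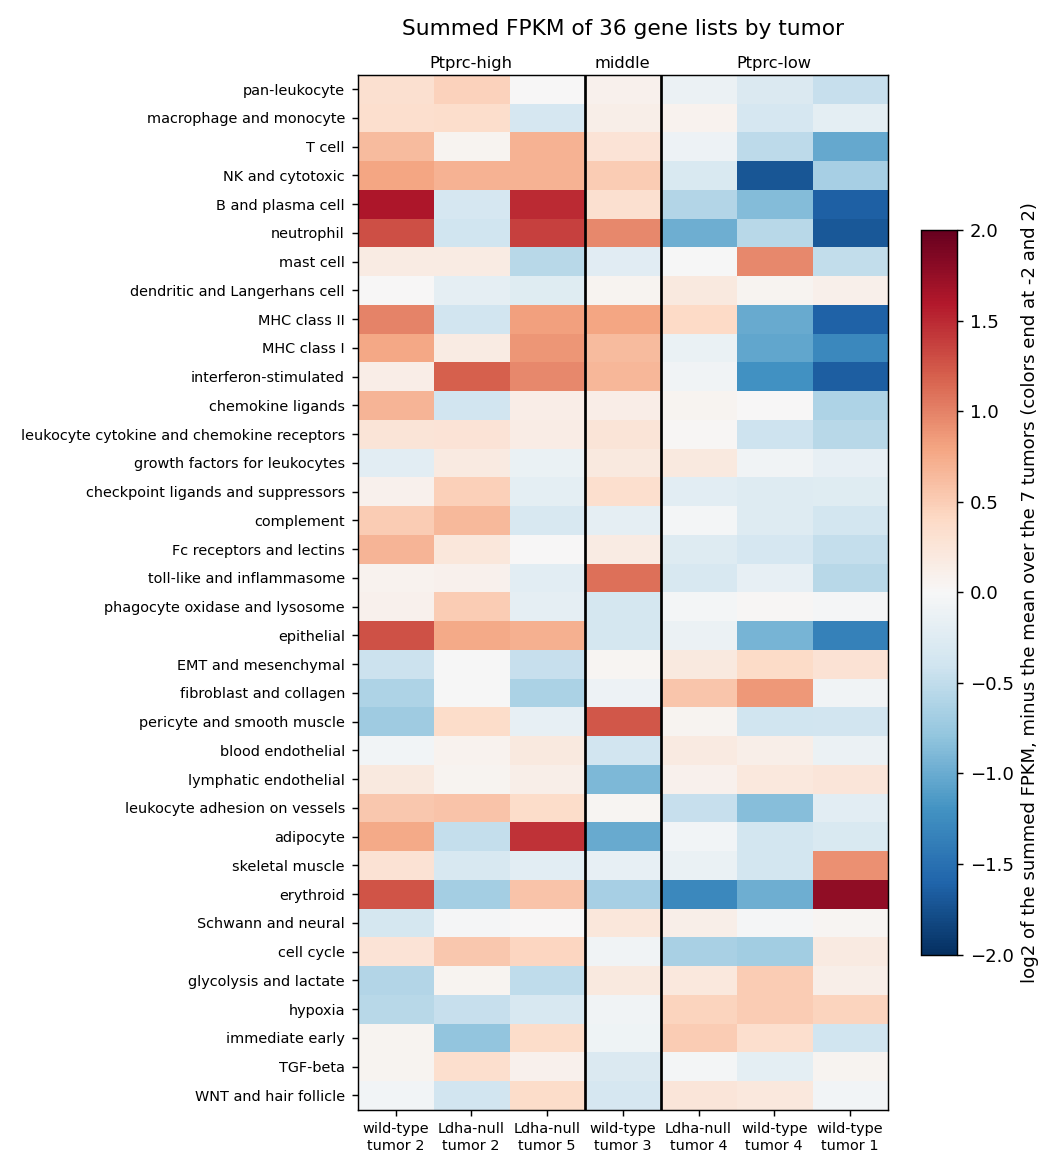
Summed FPKM of all 36 gene lists in the 7 *Vim*-high tumors, as log2 minus the mean over the 7, red above and blue below it, with columns in the order of *Ptprc*. The B and plasma cell sum was highest in wild-type tumor 2 and *Ldha*-null tumor 5, and *Ldha*-null tumor 2 had the highest interferon-stimulated sum (1488 FPKM).

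The 3 Ptprc-high tumors were thus of unlike makeup. *Ldha*-null tumor 2 had the largest pan-leukocyte and interferon-stimulated sums of the 7 tumors, at 2596 and 1488 FPKM. Its sums for B and plasma cells (247 FPKM) and MHC class II (1989 FPKM) were lower than those of wild-type tumor 2 (953 and 5179 FPKM) and *Ldha*-null tumor 5 (873 and 4589 FPKM). In the latter 2 tumors *Igkc* gave most of the B and plasma cell sum (763 and 699.8 FPKM, against 116 FPKM in *Ldha*-null tumor 2). Among the 3 Ptprc-high tumors, *Igj* and *Cd79b* were also lowest in *Ldha*-null tumor 2, whereas *Iglc2* was highest there. The neutrophil sum of *Ldha*-null tumor 2 was lower too (738 against 2391 and 2524 FPKM). Most of that sum was *S100a8* and *S100a9*, so it does not show fewer neutrophil transcripts in general. Among the Ptprc-low tumors, *Ldha*-null tumor 4 had the largest MHC class II sum (3410.0 FPKM, against 1293 and 841 FPKM) and wild-type tumor 4 the largest mast cell sum (799 FPKM, against 406 and 291 FPKM). MHC class II genes overlapped between the groups as a sum, and *H2-Aa*, a class II chain, ranged from 1146, 272 and 1018 FPKM in Ptprc-high to 558, 204 and 10.7 FPKM in Ptprc-low tumors.

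Of 12 pericyte and smooth muscle genes and of 6 erythroid genes 0 were higher or lower without overlap, of 12 skeletal muscle genes 1 was higher and 1 lower, of 7 lymphatic endothelial genes 1 was lower and of 7 Schwann and neural genes 2 were lower. Of 16 genes of TGF-beta signaling 1 was higher and 2 lower, of 16 genes of WNT signaling and hair follicles 1 was higher and 3 lower, and of 16 immediate early genes 1 was lower. Without wild-type tumor 1, where 17.8% of all genes were lower, 8 immediate early genes and 7 of WNT signaling and hair follicles were, and the latter were also 7 without *Ldha*-null tumor 2. With any tumor other than these left out, the numbers were 1 to 3 and 3 or 4, where 12.2% to 14.8% of all genes were lower. The erythroid genes summed to 1789, 464 and 1113 FPKM in Ptprc-high and 307, 379 and 2546 FPKM in Ptprc-low tumors, and of these the sum was highest in wild-type tumor 1. Without that tumor 4 of the 6 erythroid genes were higher in Ptprc-high tumors, where 17.6% of all genes were. With any other tumor left out 0 were. Of 10 MHC class II genes 2 were higher, without *Ldha*-null tumor 4 there were 9, where 16.1% of all genes were, and without *Ldha*-null tumor 2 there were 7, where 19.3% were. With any other tumor left out 2 were higher, where 13.0% to 17.6% of all genes were. Against 10.4% higher and 9.72% lower of all genes, 5 of 27 cytokine and chemokine receptors were higher and 1 lower, 5 of 15 growth factors for leukocytes were higher and 2 lower, and 4 of 14 checkpoint ligands and suppressors were higher and 1 lower. Without *Ldha*-null tumor 4, where 16.1% of all genes were higher, 12 receptors, 8 growth factors and 8 checkpoint genes were. With any other tumor left out these numbers were 6 to 10, 5 or 6 and 4 to 8, where 13.0% to 19.3% of all genes were higher.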

How the data were processed

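RNA-seq was done on 10 whole tumors, and the series describes 5 mice of each genotype. Reads were base-called with CASAVA 1.8 (the submitters' processing notes and the methods) and aligned to mm10 with TopHat2, 2 mismatches set. The deposited count values are the authors' fragment counts per gene from HTSeq (union mode, strand not kept), without normalization, and overlapping or antisense genes can therefore share fragments. The deposited FPKM values were made by the authors from these counts, gene length and the total count, for 35275 genes. Which TopHat2 and HTSeq versions and gene models were used is not given in the sources used here. Each value column matched 1 sample.

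Tumors were grouped by FPKM of *Vim* and *Ptprc* from the same libraries, so every difference of a gene that shares cells with *Ptprc* is in part set by the ranking, and p-values describe these groups. Counts were tested with edgeR 4.0.16 (R 4.3.3, TMM, filterByExpr keeping genes at 10 counts in enough libraries and 15 in total, quasi-likelihood test, Benjamini-Hochberg adjustment over 15532 genes). Overlap was judged on log2 CPM with a prior count of 2. The fit was tested on simulated data. Members and lists (36 lists, 626 genes, 622 matched, 592 tested) were chosen with earlier results of these data known. Named genes are the label markers, *Vim*, *Ldha*, up to 4 members per list with the smallest p, and, outside the lists, 15 genes per direction by smallest p. Other named genes are said to be chosen later, or serve as examples of a count. Alternatives were RLE and upper-quartile factors, DESeq2 1.42.0, limma-voom (limma 3.58.1), other filters and thresholds, genotype as a covariate, *Ptprc* as a continuous covariate, the middle tumor added to either group, and each tumor left out. Depth was 12969508 to 17694201 counts per tumor in the 7 *Vim*-high tumors. Some items, among them 1 named gene and the identity of 1 tumor allele, are not reported here.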

Additional observations from a re-analysis of the deposited data

Results flagged for a closer look

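The summed FPKM of each of the 36 lists was compared over the 7 *Vim*-high tumors, and in 3 of them 1 tumor lay apart from the rest by more than Dixon's test for 7 values allows. Chance alone gives such a gap in about 1 in 20 lists. Toll-like receptor and inflammasome genes summed to 948 FPKM in wild-type tumor 3, the middle of the ranking, and to 302 to 471 FPKM in the other 6. Of this sum, *Casp1*, the protease of inflammasomes, gave 430.3 FPKM and *Casp4*, which senses bacterial lipid, gave 216 FPKM, both named after their values were seen. Lymphatic endothelial genes summed to 204 FPKM in the same tumor and to 391 to 449 FPKM in the other 6. Schwann and neural genes summed to 17.4 FPKM in wild-type tumor 2 and to 21.8 to 25.8 FPKM in the other 6.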

How the results depend on the processing

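The count of genes called at an adjusted p under 0.05 was 0 in either direction with TMM, RLE factors, limma-voom, a mean CPM of at least 5, genotype as a covariate, the middle tumor added to either group, or an adjusted p under 0.01. Upper-quartile factors gave 0 higher and 3 lower, 1 of the latter in the lists. DESeq2 gave 382 higher and 312 lower (71 and 24 in the lists), and edgeR with no filter on low counts gave 58 and 52 (8 and 4). An adjusted p under 0.1 gave 11 and 19 (1 and 3). With log2 *Ptprc* CPM as a covariate over the 7 *Vim*-high tumors the counts were 35 and 6 (8 and 0), and over all 10 tumors 807 and 1272 (170 and 42). With each tumor left out in turn the counts ran from 0 to 27 higher and from 0 to 70 lower, and in the lists from 0 to 6 and from 0 to 5. They were 27 and 70 without wild-type tumor 1, 9 and 14 without *Ldha*-null tumor 2, and 0 without any of the others. The cause was not tested.

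Of the 174 named genes, 65 changed sign under at least 1 of 19 alternatives, 59 of them with *Ptprc* as a covariate over all 10 tumors. When a tumor was left out 8 did so, among them *Csf1r* without *Ldha*-null tumor 2 (log2 fold change -0.03). Over all 10 tumors, which bring in the *Vim*-low tumors, the slope on *Ptprc* was negative and called for *Cfd* (-1.77), *Car3* (-2.53), *Cidec* (-1.69), *Actn3* (-3.17), *Myh4* (-3.11) and *Pvalb* (-3.08), each positive between the groups. No paired analysis was possible because the replicate number and the group could not be fitted together in the 6 tumors (rank 4 for 5 columns). Counts of genes without overlap, chosen after seeing the data, were 1569 higher and 1541 lower with RLE factors and 1607 and 1545 with upper-quartile factors, against 1610 and 1510 with TMM, and 2192 and 1072 on FPKM. With 3 tumors a group and a biological coefficient of variation of 34.8%, small differences could not be told from the spread.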
